A study of Mus musculus with 6 samples.

Results

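The 4 Notch receptor genes (Notch1, Notch2, Notch3, and Notch4) and the 5 genes of their canonical ligands (Jag1, Jag2, Dll1, Dll3, and Dll4) were followed in HL-1 cells after silencing of the long noncoding RNA Malat1. These 9 genes were chosen by their symbols, and each has 1 row among the 21269 genes of the deposited table. Notch1 rose and Notch2 fell. Most receptor counts in the control cultures were of Notch2, while after Malat1 silencing the counts of Notch3 and Notch2 were about equal. Per kilobase of exon, Notch3 then lay above Notch2 (means of 52.5 and 40.6 normalized counts). Among the ligands, Jag1, the most abundant, was lower, while Dll1 and Dll4 lay higher in each Malat1-silenced library at low counts and did not pass the test.

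HL-1 is a line derived from mouse atrial cardiomyocytes that keeps contracting in culture. The cells received 50 nM of a control gapmer (LNA Control, 3 libraries) or of a gapmer against Malat1 (LNA Malat1, 3 libraries) 24 hours after seeding, and RNA was collected 48 hours after transfection. Gapmers are antisense oligonucleotides with a DNA core and locked nucleic acid (LNA) ends that bring RNase H to their target. Both groups thus carried a transfected LNA, and each group is a single line treated with 1 oligonucleotide. No source used here says whether the libraries of a group came from separate cultures, so the p-values measure the spread between these libraries, which may be technical.

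Notch receptors are membrane proteins that are cut when a ligand on a neighboring cell pulls on them. The released intracellular part enters the nucleus, joins the DNA-binding protein RBPJ and a Mastermind-like coactivator, and switches on target genes such as those of the Hes and Hey repressors. In the heart the pathway is known for its part in trabeculation, valve formation, and the proliferation of immature cardiomyocytes.

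The measure is the normalized count, which is the number of reads on the exons of a gene divided by 1 factor per library and rounded to a whole number. The libraries held between 4511701 and 5594258 reads on genes, recovered from the steps that rounding leaves. Malat1 itself, the targeted RNA, had 5051, 5197, and 4369 normalized counts in the LNA Control libraries and 2833, 2792, and 2732 in the LNA Malat1 libraries, which left it at 57.2% of the control level. LNA Malat1 replicates 1 and 3 differed by less than the sampling noise over 14522 genes (chi-square of 0.949 per gene, where noise alone gives a value near 1) and were counted as 1 sample in each mean ± SD, although replicates 1 and 2 were almost as close (1.01 per gene). In the 1753 genes with the most reads, replicates 1 and 3 differed by slightly more than the noise (1.10 per gene, chi-square p = 0.0029), so counting them once is a cautious choice. LNA Control replicate 1 stood apart: in it the 525 genes with the lowest GC content (30.8% to 39.2%) had a median log2 deviation of -0.24 from their mean over the 6 libraries, and the 525 with the highest (59.2% to 71.4%) one of 0.09 (genes with a mean of at least 50). Of 11 atrial cardiomyocyte markers 9 have a row, with a summed count of 2883 to 3039 in LNA Control and 2785 to 2863 in LNA Malat1. Tnnt2, Actc1, Tnni3, Gata4, Nkx2-5, and Tbx5 were above 100 in each library. Myl7 (18 to 32) and Myl4 (30 to 49) were low, and Myh6, a cardiac myosin heavy chain gene, did not exceed 7. In the fit described below, 0 of the 8 markers tested were called. Those with an adjusted p of at most 0.05 went both ways, with log2 fold changes of 0.15 (Tnnt2), -0.21 (Gata4), and -0.22 (Tbx5). Nppa and Sln were not analysed here.

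Genes with a mean of at least 5 normalized counts entered a limma fit of log2(normalized count + 1). Unlike the mean ± SD, this fit took each library as 1 sample. Calls needed an adjusted p no greater than 0.05 (Benjamini-Hochberg over 15650 genes) and a change of 1.5-fold or more. Fold changes are given on this log2 scale, which understates the change of low genes. All 9 Notch genes passed the minimum, Dll3 exactly at a mean of 5. Dll4 passed it only through the LNA Malat1 libraries (mean 8.67), since its control mean was 3.67. Of the 9, 1 was called higher and 1 lower, against 8.0% and 2.92% of the genes tested. At an adjusted p of at most 0.05 without the fold change minimum, 1 was higher and 2 were lower, against backgrounds of 14.3% and 14.0%. The groups did not overlap for 3 genes that were higher and 2 that were lower (20.5% and 20.8% of the genes tested, 41.3% either way). The median log2 fold change of the 9 was 0.29, that of the 4 receptors 0.64, and that of the 5 ligands -0.22, beside 0.02 for all genes tested. The receptor median lies between Notch3 and Notch4, neither of which was called. The value of 0.02 is not matched for level, since 4 of the 9 had a mean under 20, where the median was 0.37. With so few genes, these shares and medians do not set the Notch genes apart from the table as a whole.

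**Figure D1:**
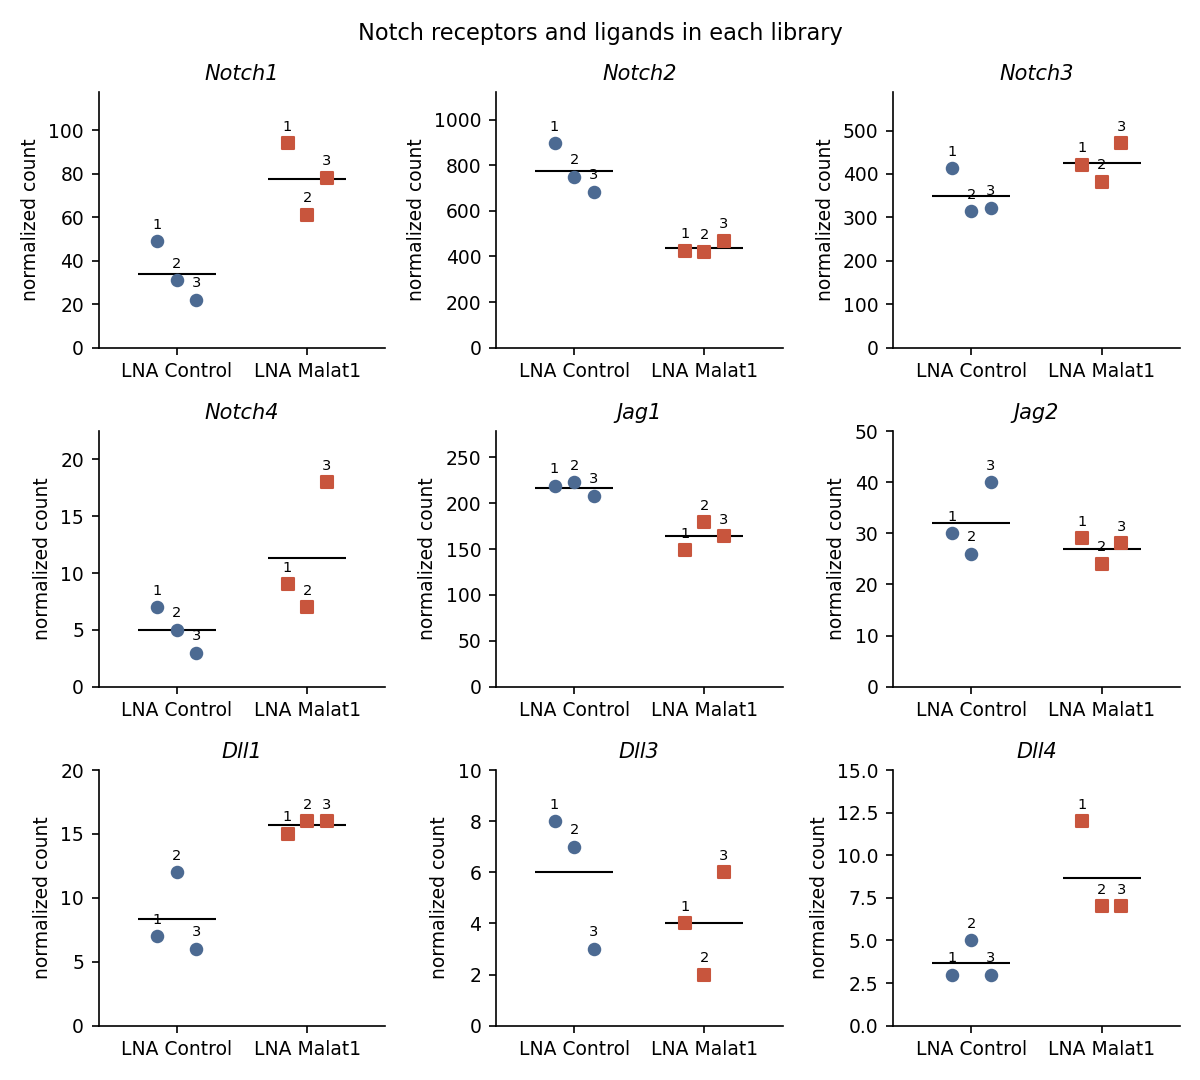
Normalized counts (y axis, starting at 0, with its own scale in each panel) of the 9 Notch genes in the 3 LNA Control libraries (blue circles) and the 3 LNA Malat1 libraries (red squares), numbered by replicate, with a line at the mean of the 3 libraries. The groups are apart for Notch1, Notch2, Jag1, Dll1, and Dll4 and overlap for Notch3, Notch4, Jag2, and Dll3.

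Notch1, the receptor that most studies of the myocardium and endocardium concern, had 49, 31, and 22 normalized counts in the controls and 94, 61, and 78 after Malat1 silencing. The lowest LNA Malat1 library lay above the highest control, which was replicate 1. The mean went from 34.0 ± 13.7 (SD, n = 3) to 73.5 ± 17.7 (SD, n = 2), and the fitted log2 fold change was 1.22 (SE 0.25, 95% interval 0.68 to 1.76, adjusted p = 0.0031 by limma), which is 2.33-fold. With LNA Malat1 replicates 1 and 3 averaged in the fit as well, the log2 fold change was 1.14 (SE 0.30, adjusted p = 0.028 by limma). Leaving out LNA Control replicate 1 gave a log2 fold change of 1.51, and leaving out each library in turn kept the call, with the highest adjusted p at 0.030. Notch1 (ENSMUSG00000026923) lies on the minus strand at chr2:26457903-26516663 of mm10, with 40 exons after merging its transcripts. It sat at percentile 34.5 of level among the genes tested, so the rise took place in a gene with few reads. The noncoding gene 0610009E02Rik shares 1068 exonic bases with Notch1 on the opposite strand, and since the strand setting of the counting was not given in the sources used here, whether reads of the pair were told apart was not tested.

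Notch2, the receptor best known from vascular smooth muscle and bile duct development, had 897, 749, and 683 normalized counts in the controls and 425, 420, and 469 after Malat1 silencing. Its groups lay far apart, and the LNA Malat1 libraries differed little among themselves. The level went from 776 ± 110 (SD, n = 3) to 434 ± 19.1 (SD, n = 2), or 55.8% of control, with a log2 fold change of -0.82 (SE 0.09, adjusted p = 2.4e-05), or 0.568-fold (95% interval 0.499 to 0.646). That is close to the change of Malat1 itself, at -0.80 (SE 0.07). Without LNA Control replicate 1, the highest control, Notch2 still differed by -0.71. With LNA Malat1 replicates 1 and 3 averaged in the fit, it differed by -0.83 (SE 0.10, adjusted p = 7.2e-04 by limma). Notch2 (ENSMUSG00000027878) lies on the plus strand at chr3:98013527-98150361, has 34 merged exons, and was the most abundant of the 9 genes in LNA Control, at percentile 84.1 of the genes tested.

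Notch3, which is known for its role in the mural cells of arteries, had 413, 314, and 322 normalized counts in the controls and 421, 382, and 471 after Malat1 silencing. LNA Control replicate 1 lay above LNA Malat1 replicate 2, so the groups overlapped through that control library. The log2 fold change was 0.29 (SE 0.10, 95% interval 0.07 to 0.50) with an adjusted p of 0.051, just above the threshold of 0.05. The result depended on single libraries, since without LNA Control replicate 1 it was 0.41 (adjusted p = 0.00048), without LNA Malat1 replicate 2 0.36 (adjusted p = 0.048), and without LNA Malat1 replicate 3 0.21 (adjusted p = 0.23). Correcting for GC content gave 0.32 (adjusted p = 0.0077). Under these settings it stayed below the 1.5-fold minimum, and its direction was positive in all 19 alternatives run. Several of these, such as the replicate block and the filters, cannot change the estimate, and all reuse the same libraries. Notch3 lies on the minus strand at chr17:32120820-32166852 and has 33 merged exons.

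Notch4, a receptor expressed mainly in endothelium, was near the limit of detection, with 7, 5, and 3 normalized counts in the controls and 9, 7, and 18 after Malat1 silencing. LNA Malat1 replicate 3 lay well above the others, and replicate 2 of that group equaled the highest control. The recovered reads summed to 14 over the LNA Control libraries (exact Poisson 95% interval 7.65 to 23.5) and to 36 (25.2 to 49.8) over LNA Malat1, and these intervals cover counting error only. The log2 fold change of 0.99 (SE 0.42, 95% interval 0.08 to 1.91) did not pass the test (adjusted p = 0.099), except without LNA Control replicate 1 (1.23, adjusted p = 0.045). The 4 endothelial markers with a row, out of 12 listed, summed to 97 to 102 in LNA Control and 97 to 115 in LNA Malat1, and Cdh5, Kdr, and Flt1 were not analysed here. Notch4 lies on the plus strand at chr17:34564268-34588503 and has 31 merged exons.

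LNA Control replicate 1 was the highest control for each of the 4 receptors, and it was also the library whose counts tilted toward GC-rich genes. The longest transcripts of the receptor genes have GC contents between 53.6% (Notch2) and 61.2% (Notch4). After correction for GC content, an alternative chosen after seeing the data, the log2 fold changes were 1.26 for Notch1 and -0.75 for Notch2, so both calls were kept. Jag1, whose longest transcript has 48.8% GC, was at -0.33 after the correction.

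**Figure D2:**
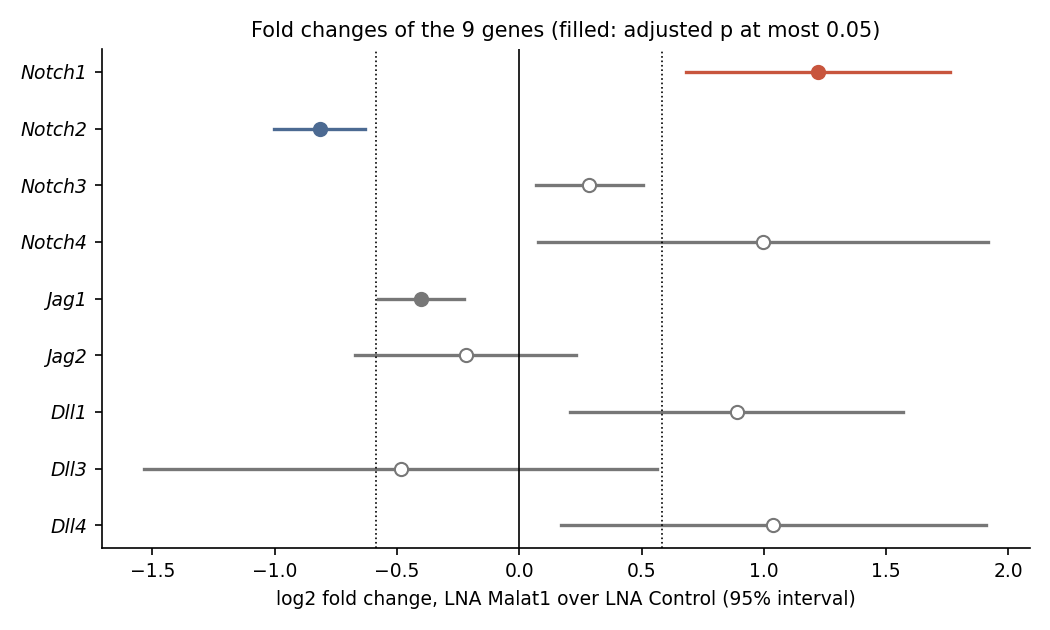
Log2 fold change of LNA Malat1 over LNA Control (x axis) with its 95% interval for each of the 9 Notch genes, filled where the adjusted p is at most 0.05 and colored red or blue where the gene was also called higher or lower. Dotted lines mark a 1.5-fold change. Notch1 lies at 1.22, Notch2 at -0.82, and Jag1 at -0.40, and the widest interval is that of Dll3.

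The 250 bases before the RefSeq start of Notch1, Notch2, and Jag1, the members past the adjusted p threshold, are shown because a receptor that rose, a receptor that fell, and a ligand that was lower can be compared in their proximal promoters. They are RefSeq sequence of GRCm38.p6, written 5′ to 3′ on the strand of the gene, and capitals mark GC boxes (GGGCGG or its reverse complement CCGCCC), the motif that factors of the Sp family can bind. The windows are chr2:26503823-26504072 (minus strand) for Notch1, chr3:98013288-98013537 (plus strand) for Notch2, and chr2:137116521-137116770 (minus strand) for Jag1.
Notch1: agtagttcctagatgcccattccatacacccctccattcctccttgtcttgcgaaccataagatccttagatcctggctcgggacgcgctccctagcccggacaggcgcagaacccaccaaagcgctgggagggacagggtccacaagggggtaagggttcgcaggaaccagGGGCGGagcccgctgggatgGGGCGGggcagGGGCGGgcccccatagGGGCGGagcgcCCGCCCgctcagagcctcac
Notch2: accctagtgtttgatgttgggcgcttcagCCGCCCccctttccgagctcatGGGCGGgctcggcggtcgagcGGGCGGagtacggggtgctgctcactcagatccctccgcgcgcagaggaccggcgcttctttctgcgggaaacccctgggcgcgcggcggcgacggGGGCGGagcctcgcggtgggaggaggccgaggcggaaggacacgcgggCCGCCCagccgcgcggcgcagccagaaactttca
Jag1: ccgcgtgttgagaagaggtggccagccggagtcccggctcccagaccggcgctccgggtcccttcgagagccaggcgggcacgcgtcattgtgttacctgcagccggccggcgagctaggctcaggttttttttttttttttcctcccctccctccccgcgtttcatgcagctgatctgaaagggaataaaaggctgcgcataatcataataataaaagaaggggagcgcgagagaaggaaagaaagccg

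The Notch1 and Notch2 windows each held 5 GC boxes, and the Jag1 window held none. In Notch1 they crowded within 78 bases of the start, while in Notch2 they lay between 34 and 221 bases before it. The windows of Notch3 and Jag2 held 4 and 5, those of Dll4 and Dll3 held 2 and 1, and those of Notch4 and Dll1 held none. A GC box occurred in 32.7% of 32851 RefSeq windows of the same length. The RBPJ site GTGGGAA (either strand) was absent from the windows of all 9 genes and present in 5.42% of all windows, and the same held for the E-box CACGTG that Hey and Hes repressors can bind (6.02%) and for the TATA box TATAAA (12.4%). These matches describe letters in a short window and say nothing of whether a factor bound there. The RefSeq start of Notch1 lies inside the Ensembl span of the gene, which reaches upstream past the whole window. The windows of Jag2 and Dll3 and the Dll1 window at chr17:15375824-15376073 also lie wholly inside the Ensembl spans of their genes. Those of Jag1, Notch2, and Notch4 do so in part, that of Notch2 by a few bases only.

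Jag1, the ligand required for outflow tract and vascular development, had 219, 223, and 208 normalized counts in the controls and 149, 179, and 164 after Malat1 silencing. The control libraries were close together, and the highest LNA Malat1 library stayed below the lowest of them. The mean went from 217 ± 7.77 (SD, n = 3) to 168 ± 15.9 (SD, n = 2), or 77.4% of control. The log2 fold change of -0.40 (SE 0.08, 95% interval -0.58 to -0.23, adjusted p = 0.0028) fell short of the 1.5-fold minimum, so Jag1 differed between the groups but was not called. Leaving out each library in turn gave values between -0.47 and -0.34, each past the adjusted p threshold. With LNA Malat1 replicates 1 and 3 averaged in the fit, the log2 fold change was -0.37 (SE 0.08, adjusted p = 0.015 by limma). Jag1 lies on the minus strand at chr2:137081456-137116644 and has 25 merged exons.

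Jag2, the second Jagged ligand, had 30, 26, and 40 normalized counts in the controls and 29, 24, and 28 after Malat1 silencing. The groups overlapped, and LNA Control replicate 3 was the highest of the 6 libraries. The log2 fold change of -0.22 had a 95% interval from -0.67 to 0.23 (adjusted p = 0.47), so a change the size of that of Jag1 lies within it. The gene lies on the minus strand at chr12:112907819-112929776 and has 24 merged exons.

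Dll1, a Delta ligand that activates Notch receptors on neighboring cells, had 7, 12, and 6 normalized counts in the controls and 15, 16, and 16 after Malat1 silencing. The LNA Malat1 libraries were nearly equal and lay above the highest control, replicate 2. The reads summed to 24 (exact Poisson 95% interval 15.4 to 35.7) and 50 (37.1 to 65.9), and the log2 fold change was 0.89 (SE 0.31, 95% interval 0.21 to 1.57) with an adjusted p of 0.051. Without LNA Control replicate 2 it was 1.15 (adjusted p = 0.024), while without any 1 of the other libraries the adjusted p ranged up to 0.14. Dll1 also passed the threshold with library totals set equal (adjusted p = 0.044) and after the GC correction (adjusted p = 0.036). It lies on the minus strand at chr17:15367354-15376872 and has 12 merged exons.

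Dll4, the Delta ligand of sprouting endothelium, had 3, 5, and 3 normalized counts in the controls and 12, 7, and 7 after Malat1 silencing. The groups did not overlap, but they rest on 11 recovered reads in LNA Control (5.49 to 19.7) and 28 in LNA Malat1 (18.6 to 40.5). The log2 fold change of 1.04 (SE 0.40, 95% interval 0.17 to 1.91) had an adjusted p of 0.071 and passed the threshold in 0 of 17 alternatives by limma, although its unadjusted p was 0.023. Dll4 lies on the plus strand at chr2:119325784-119335962 and has 11 merged exons. The noncoding gene Gm14207 starts on the opposite strand, shares 214 exonic bases with Dll4, and had 3, 2, and 3 normalized counts in the controls and 11, 8, and 6 after Malat1 silencing (log2 fold change 1.33, adjusted p = 0.030). The call of Gm14207 was lost without LNA Control replicate 2 (1.19, adjusted p = 0.074), LNA Malat1 replicate 1 (1.13, adjusted p = 0.14), or LNA Malat1 replicate 2 (1.33, adjusted p = 0.086). The call was also lost with LNA Malat1 replicates 1 and 3 averaged in the fit (1.35, adjusted p = 0.066 by limma). Gm14207, like Dll4, passed the minimum mean of 5 only through the LNA Malat1 libraries. As for Notch1, whether reads of the pair were told apart was not tested.

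Dll3, which unlike the other Delta proteins acts inside its own cell and inhibits signaling, had 8, 7, and 3 normalized counts in the controls and 4, 2, and 6 after Malat1 silencing. The groups overlapped, and with 16 and 13 recovered reads a log2 fold change anywhere from -1.53 to 0.56 was compatible with the spread (95% interval, adjusted p = 0.49). No difference in Dll3 was detected. Dll3 lies on the minus strand at chr7:28293553-28302238 and has 7 merged exons.

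The fold changes of the table as a whole varied with the level of the genes. Among the 3325 genes tested with a mean of 5 to 20 normalized counts, where Notch4, Dll1, Dll3, and Dll4 lie, the median log2 fold change was 0.37, 17.2% were called higher, and 1.11% were called lower. Notch4, Dll1, and Dll4 lay between 0.89 and 1.04, above that median, and Dll3 lay below it. In the band of 20 to 100 that holds Notch1 and Jag2, the median was 0.14 and 15.4% of 3414 genes were called higher, so Notch1 at 1.22 exceeded the median of its band by a wide margin while Jag2 at -0.22 lay below it. Above 500, the band of Notch2, the median was -0.05 and 2.22% of 3205 genes were called lower.

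**Figure D3:**
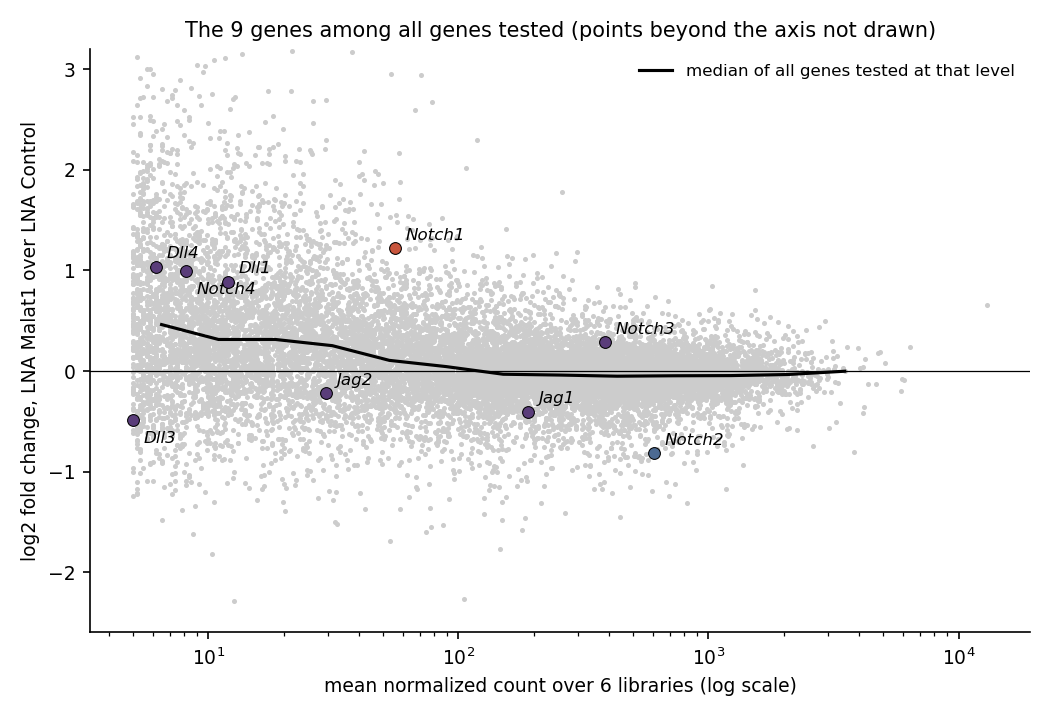
Log2 fold change (y axis) against the mean normalized count over the 6 libraries (x axis, log scale) for the genes tested (gray), with the 9 Notch genes named and the median of all genes at each level as a line. Notch1 (red, called higher) and Notch2 (blue, called lower) lie far from the line, the members that were not called are purple, and Notch4, Dll1, Dll3, and Dll4 lie at low counts, where the line is above 0.

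Because all genes of a library share 1 factor, the share of each receptor among the summed receptor counts does not depend on that factor. Notch2 made up 65.7%, 68.2%, and 66.3% of the receptor counts in the LNA Control libraries and 44.8%, 48.3%, and 45.3% in the LNA Malat1 libraries. Notch3 went from 30.2%, 28.6%, and 31.3% to 44.4%, 43.9%, and 45.5%. Notch1 took 3.59%, 2.82%, and 2.14% in the controls and 9.91%, 7.01%, and 7.53% after Malat1 silencing. For all 3 receptors the shares of the groups were apart by more than the libraries of a group differed among themselves, with mean differences of -20.6, 14.6, and 5.30 percentage points. Shares of 1 sum are tied to each other, so the fall of Notch2 by itself raises the share of Notch3. The counts of Notch3 overlapped between the groups. The sum of the 4 receptors was 1366, 1099, and 1030 in the controls and 949, 870, and 1036 after Malat1 silencing, and these sums overlapped.

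Ratios within a library show the same shift. Each Notch1 count was matched by 18.3, 24.2, and 31.0 Notch2 counts in LNA Control and by 4.52, 6.89, and 6.01 in LNA Malat1, a difference of 2.04 in the mean log2 ratio of Notch1 to Notch2. For Notch3 the number of Notch2 counts went from 2.17, 2.39, and 2.12 to 1.01, 1.10, and 0.996. These values describe the libraries and were not tested, because the opposite moves of Notch1 and Notch2 were already known when the ratios were chosen.

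Among the ligands, Jag1 held 82.0%, 81.7%, and 80.0% of the summed ligand counts in the controls and 71.3%, 78.5%, and 74.2% after Malat1 silencing. The mean difference in its share was -6.57 percentage points, and the groups did not overlap. The mean share of Dll1 went from 3.11% to 7.14% and that of Dll4 from 1.37% to 3.99%, while Jag2 was at 12.0% and 12.4%. Here too, lower Jag1 counts raise the shares of the other ligands. The ligand sum was 267, 273, and 260 in the controls and 209, 228, and 221 after Malat1 silencing, so the sums of the groups did not overlap.

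**Figure D4:**
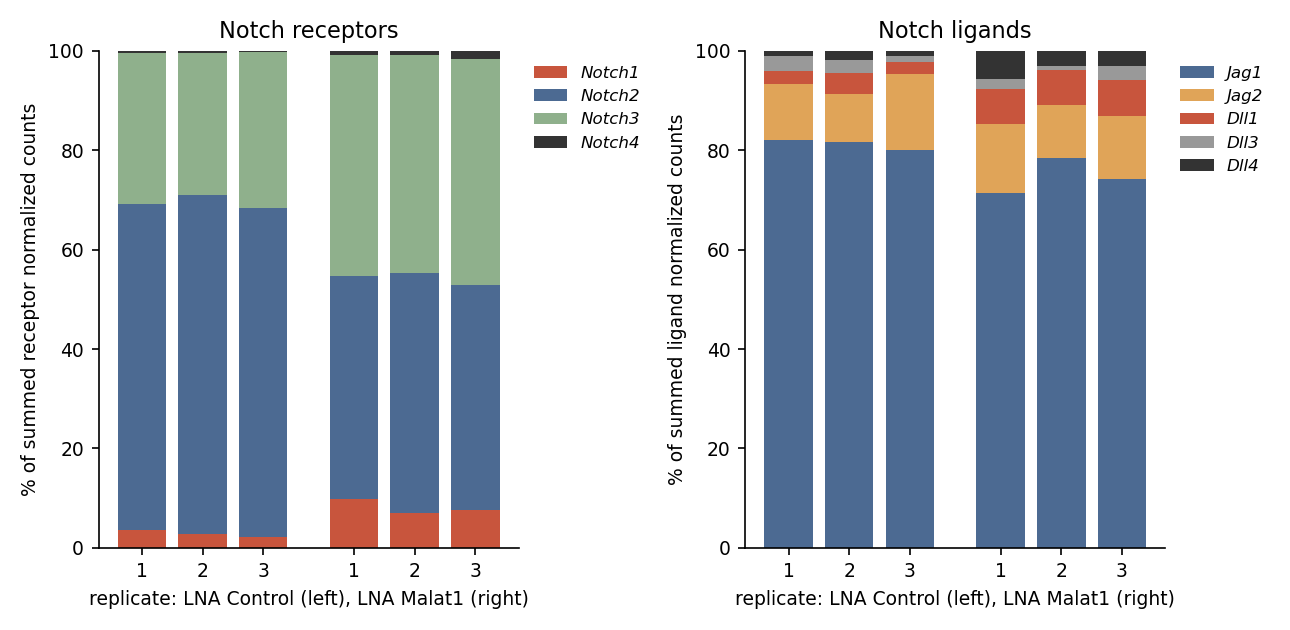
Share of each gene (y axis, percent) in the summed normalized counts of the 4 Notch receptors (left) and the 5 ligands (right) in each library (x axis, replicates 1 to 3 of LNA Control, then of LNA Malat1). Notch2 makes up a mean of 66.7% of receptor counts in the controls and 46.1% after Malat1 silencing, where Notch3 makes up 44.6%.

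Levels of different genes were compared per kilobase of merged exon. In LNA Control the order was Notch2 (mean 72.0 normalized counts per kilobase, range 63.3 to 83.2), Notch3 (43.2, range 38.8 to 51.1), Jag1 (37.2, range 35.7 to 38.3), and Jag2 (4.59, range 3.73 to 5.74), each apart from its neighbor. Notch1 (2.39), Dll3 (2.11), and Dll1 (1.98) followed with overlapping ranges, and Dll4 (0.952) and Notch4 (0.620), which also overlapped each other, were lowest. HL-1 cells thus held transcripts chiefly of Notch2, Notch3, and Jag1.

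In LNA Malat1, Notch3 led at 52.5 normalized counts per kilobase (range 47.2 to 58.2), ahead of Notch2 at 40.6 (range 39.0 to 43.5), and the ranges were apart. Jag1 came next at 28.1, then Notch1 at 5.46 (range 4.29 to 6.60), then Jag2 at 3.88 (range 3.45 to 4.16). The ranges of Notch1 and Jag2 did not overlap, but they lay close together. Dll1 at 3.71 overlapped Jag2. Dll4 (2.25), Notch4 (1.41), and Dll3 (1.40) came last, each overlapping the next.

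Among the other genes of the Notch pathway, few were called. Of 79 listed, 72 have a row and 70 were tested, of which 4 (5.71%) were called higher and 0 lower by limma, beside 8.0% and 2.92% of all genes tested. At an adjusted p of at most 0.05 alone, 7 (10.0%) were higher and 12 (17.1%) lower, beside 14.3% and 14.0% of all genes tested. The median log2 fold change of the 70 was -0.02. When each library was left out in turn, 2 of the 7 higher genes (Rbpjl and Hey2) stayed past the threshold. Of the 12 lower genes, 7 did so (Neurl1b, Adam10, Itch, Fbxw7, Maml2, Kat2b, and Ctbp2). The same shares over all genes tested were not computed, so these counts show no lean of the pathway genes. Among the 4 called, Neurl3 and Dtx1 had control means below the minimum of 5. They passed the filter only through the group where they were higher, so their calls are weak support. With LNA Malat1 replicates 1 and 3 averaged in the fit, Neurl3 and Dtx1 lost their calls, while Rbpjl and Hey2 kept theirs.

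Of 17 genes tested that modify the receptors or help cells take up ligand, 1 was called. Neurl3, a gene of the neuralized family of ubiquitin ligases, had 1, 2, and 2 normalized counts in the controls and 12, 5, and 8 after Malat1 silencing (log2 fold change 1.76, SE 0.47, adjusted p = 0.014), but the call was lost without LNA Malat1 replicate 1 (1.49, adjusted p = 0.091) or replicate 3 (1.75, adjusted p = 0.060). Averaging these 2 libraries in the fit gave 1.63 (adjusted p = 0.065 by limma). Neurl1b, another neuralized ligase, was lower by a log2 fold change of -0.27 (adjusted p = 0.0056). Mib1, the main ligase for ligand uptake, had 1565, 1695, and 1642 normalized counts in the controls and 1551, 1631, and 1573 after Malat1 silencing, with overlapping groups.

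Of the 9 protease genes 0 were called by limma and 1 had an adjusted p of at most 0.05, and 8 of the 9 had a negative log2 fold change. Adam10, which makes the first cut after ligand binding, had 912, 878, and 966 normalized counts in the controls and 746, 781, and 802 after Malat1 silencing (log2 fold change -0.24, adjusted p = 0.0058). The groups did not overlap.

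Among 16 inhibitors and genes of trafficking and turnover, Dtx1, a deltex ligase that binds the receptor inside the cell, was called higher. It had 9, 2, and 3 normalized counts in the controls and 22, 10, and 15 after Malat1 silencing (log2 fold change 1.69, SE 0.47, adjusted p = 0.017), and the call was lost without LNA Control replicate 2 (1.33, adjusted p = 0.074), LNA Malat1 replicate 1 (1.43, adjusted p = 0.10), or LNA Malat1 replicate 3 (1.69, adjusted p = 0.071). With LNA Malat1 replicates 1 and 3 averaged in the fit, Dtx1 was at 1.57 (adjusted p = 0.082 by limma). Itch, a ubiquitin ligase that marks Notch for degradation, had 848, 926, and 891 normalized counts in the controls and 684, 672, and 676 after Malat1 silencing (log2 fold change -0.39, adjusted p = 1.4e-04). Fbxw7, which marks the intracellular part of the receptor for degradation, was lower by a log2 fold change of -0.37 (adjusted p = 0.0020). Both were below the 1.5-fold minimum.

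Of 20 genes of the nuclear complex, Rbpj itself had 340, 299, and 356 normalized counts in the controls and 360, 327, and 341 after Malat1 silencing, with overlapping groups (log2 fold change 0.05, adjusted p = 0.64). Its relative Rbpjl, known from pancreas, was called higher, with 38, 22, and 31 normalized counts in the controls and 64, 53, and 56 after Malat1 silencing (log2 fold change 0.93, SE 0.20, adjusted p = 0.0041). Maml2, a Mastermind-like coactivator, was lower (log2 fold change -0.32, adjusted p = 0.0057), as were the acetyltransferase Kat2b (-0.25, adjusted p = 0.0042) and the corepressor Ctbp2 (-0.41, adjusted p = 3.9e-04).

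Of the 5 target repressors tested, Hey2, a repressor that helps set ventricular identity, was called higher. It had 16, 21, and 18 normalized counts in the controls and 51, 53, and 47 after Malat1 silencing (log2 fold change 1.42, SE 0.19, adjusted p = 1.3e-04), and its groups lay far apart. The other targets did not pass the test. Hes1 had 73, 83, and 78 normalized counts in the controls and 88, 81, and 77 after Malat1 silencing (log2 fold change 0.07, adjusted p = 0.68), and Hey1 had 9, 16, and 9 in the controls and 6, 9, and 10 after Malat1 silencing (log2 fold change -0.38, adjusted p = 0.44). Hes5 was not analysed here. Of the 3 other ligands tested (Dlk2, Cntn6, and Egfl7), 0 were called by limma.

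**Figure D5:**
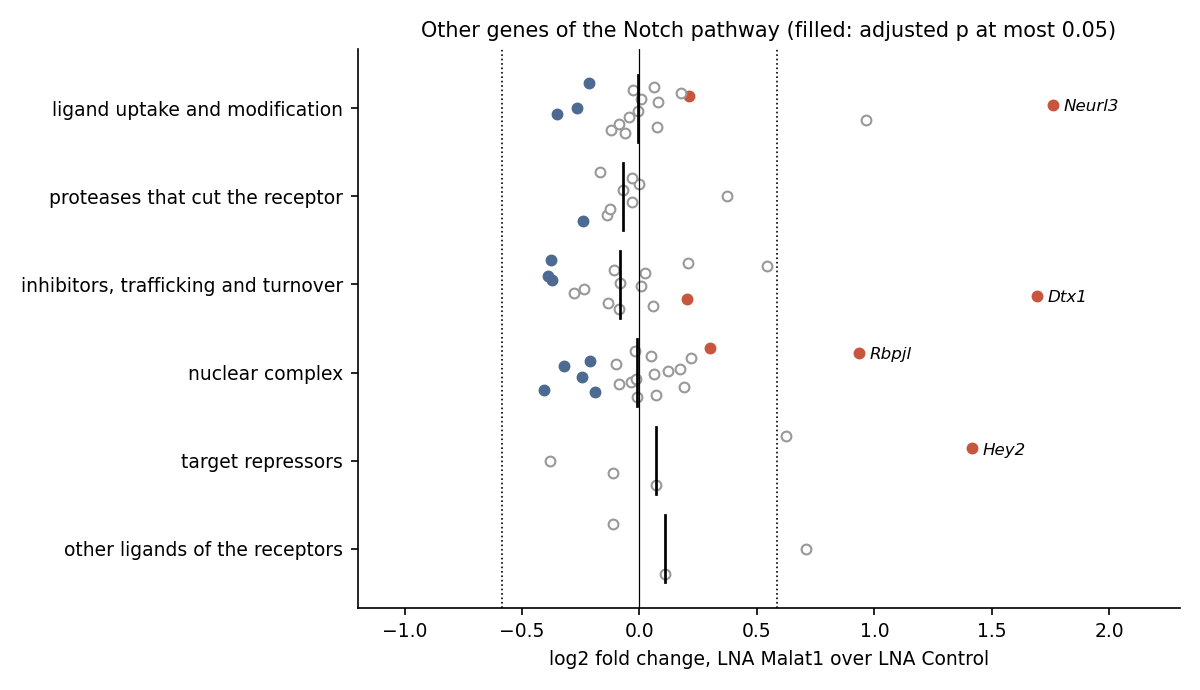
Log2 fold change (x axis) of the 70 other Notch pathway genes tested, in rows by role, each point 1 gene, filled where the adjusted p is at most 0.05 (red higher, blue lower), with a black bar at the median of each row and dotted lines at a 1.5-fold change. Neurl3 (1.76), Dtx1 (1.69), Hey2 (1.42), and Rbpjl (0.93) are called, and the other points with an adjusted p of at most 0.05 lie inside the dotted lines.

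Summed markers of some other cell types also differed between the groups. Of 8 Schwann and neuronal markers, 6 have a row, with a summed count of 68 to 83 in LNA Control and 148 to 151 in LNA Malat1, and S100b did not exceed 5. Of 7 macrophage markers, 3 have a row, with sums of 35 to 39 and 56 to 83. Smooth muscle and pericyte markers (8 of 9) summed to 2727 to 3047 and 2822 to 3018, and fibroblast markers (5 of 8) to 5304 to 5911 and 4683 to 4817. Their part in the Notch results was not tested. In RNA from a whole culture, fewer cells with a transcript and less of it per cell cannot be told apart.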

How the data were processed

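RNA sequencing of HL-1 cells (3 LNA Control and 3 LNA Malat1 libraries, grouped by the sample titles) was re-analysed from the deposited table. By the paper's methods and the submitters' processing notes, the authors trimmed single-end reads with Trimmomatic 0.39, aligned them to mm10 (Ensembl) with STAR 2.7.7a, counted reads per gene with featureCounts 1.6.5, and used DESeq2 1.30.0. Reads on several genes or regions were left out. The deposited values are a score, the normalized count rounded to whole numbers after division by 1 library factor, and count models were not used on them. The table also holds the authors' own comparison columns, which were not used.

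Genes with a mean of at least 5 (15650 of 21269) were fitted with limma 3.58.1 in R 4.3.3 (eBayes with trend, two-sided, pseudocount 1). The thresholds are those of the paper's methods. The script was tested on simulated data. Exonic length (merged exons) and GC content (longest transcript) came from GENCODE M21, where 21224 genes matched by identifier, and promoters from RefSeq. The members and gene lists were chosen with earlier results of these data known. The genes named are the 9 members, Malat1, called pathway genes, genes overlapping a member, and, for each called member, the 3 genes (mean of 50 or more) whose levels correlate best with it. Further pathway genes and markers given by name were picked with their values in view, and some list members are not reported here. For LNA Malat1 replicate 2 the recovered factor was less certain than the others (0.998 to 1.01). With 3 libraries a group, exact permutation of single genes was not used, since 0.1 is its smallest p.

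Alternatives were the replicate number as a block, other pseudocounts, scalings, filters, and thresholds, voom weights, the mean of LNA Malat1 replicates 1 and 3 as 1 library, and leaving out each library. A correction for GC content, with and without the block, was chosen after seeing the data.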

Additional observations from a re-analysis of the deposited data

How the results depend on the processing

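The adjusted p of Notch1, Notch2, and Jag1 stayed past the threshold in 18 of 18 alternatives that test against no change (log2 fold changes 0.95 to 1.51, -0.90 to -0.71, and -0.47 to -0.33). Against a 1.5-fold change, 0 members passed by limma (adjusted p 0.32 for Notch1 and 0.27 for Notch2), beside 7 with an unadjusted p under 0.05 against no change. No sign changed. Notch3 passed in 9 of 18, Dll1 in 6 of 17, Notch4 in 1 of 17, and Dll4, Jag2, and Dll3 in 0 of 17. The recovered reads of Notch4, Dll1, Dll3, and Dll4 (11 to 50 a group) leave wide intervals.

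Members called higher numbered 2 in place of 1 under a pseudocount of 5, equal library totals, voom weights, and GC correction with or without the block (Dll1 was the second), 0 in the test against 1.5-fold, and 1 to 2 with a library left out (Notch4 joined without LNA Control replicate 1 and Dll1 without replicate 2). Members called lower numbered 2 with no fold change minimum, 0 at a fold change of at least 2 (where Notch2 loses its call) or against 1.5-fold, and 1 without each library. Pathway genes called higher numbered 2 under quantile normalization and with LNA Malat1 replicates 1 and 3 averaged, 0 at a mean of at least 50, 7 with no fold change minimum, 1 against 1.5-fold, and 2 to 5 with a library left out (2 without LNA Malat1 replicate 1 or 3), and those called lower 12 with no fold change minimum.

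Genes called higher (1252) numbered 748 under quantile normalization, 317 at a mean of at least 50, 2231 with no fold change minimum, 742 at 2-fold, 192 against 1.5-fold, 831 with LNA Malat1 replicates 1 and 3 averaged, and 810 to 1582 with a library left out (810 and 812 without LNA Malat1 replicates 1 and 3). Those called lower (457) numbered 718 under quantile normalization, 2195 with no minimum, and 99 at 2-fold and against 1.5-fold, and 406 to 475 with a library left out. The share of higher calls was 73.3%, 51.0% under quantile normalization, and 47.6% at a mean of at least 50. The cause was not tested.

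Per kilobase of exon, the Notch1 share differed by 3.48 and the Notch3 share by 15.9 percentage points. With a library left out, the differences in share were 4.42 to 5.87 (Notch1), -21.7 to -19.9 (Notch2), 13.8 to 15.2 (Notch3), and -8.49 to -4.88 (Jag1).

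A replicate block gave 1297 genes called higher and 442 lower, and Notch3 then had an adjusted p of 0.023. Same-numbered libraries correlated at 0.0858, 0.182, and 0.083 in their deviations over 10490 genes, and each of 3 and 3 libraries correlated best with its own number, as a hint from the data. The samples share only a number.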

Other observations

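Gene models that overlap the Notch genes had values of their own. Gm42819, annotated on the same strand inside an intron of Notch2 at chr3:98030687-98035807, had 70, 66, and 67 normalized counts in the controls and 83, 95, and 82 after Malat1 silencing, a difference in the direction opposite to Notch2 (log2 fold change 0.35, SE 0.11, adjusted p = 0.036 by limma). It was past the threshold in 1 of 6 fits with a library left out, with adjusted p up to 0.14. With LNA Malat1 replicates 1 and 3 averaged in the fit, the log2 fold change of Gm42819 was 0.38 (adjusted p = 0.059 by limma). Gm42820, which shares 541 exonic bases with Notch2 on the same strand, had 27, 14, and 10 normalized counts in the controls and 15, 6, and 14 after Malat1 silencing (log2 fold change -0.49, adjusted p = 0.40). 0610009E02Rik, on the strand opposite Notch1, had 7, 4, and 2 in the controls and 11, 11, and 4 after Malat1 silencing (log2 fold change 0.86, adjusted p = 0.21). Gm13568 (opposite Notch1) and Gm17276 (opposite Notch3) did not exceed 5 in any library.

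Over the 6 libraries, the genes (mean of 50 or more) whose log2 levels followed Notch1 most closely were Hs6st1, Ly75, and Zfyve26 (Pearson r 0.996 for each, among 10490 genes). For Notch2 they were Nrp2 (r = 0.999), Tns1 (0.999), and Adcy6 (0.998). The 6 points fall into 2 groups and share their libraries, so these values describe likeness over this comparison, including LNA Control replicate 1, the highest control for both receptors.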
